A study of Homo sapiens with 2 samples.

Results

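The insulin-like growth factor (IGF) system was described here through 9 genes of the 33694 gene rows in the count tables. The genes were IGF2, IGF1R, IGF2R, INSR, IGFBP2, IGFBP3, IGFBP4, IGFBP5 and IGFBP7. They were chosen by name, and IGFBP2 was selected on its higher level in crest cells at the later of the 2 stages, so that its difference between stages is given as a description. Enteric neural crest cells (ENCCs), the embryonic cells that form the neurons and glia of the gut, had been differentiated from human embryonic stem cells of the H9 line. The D10 library held cells of adherent cultures on Geltrex at day 10 of the ENCC induction, after BMP4, SB431542 and CHIR 99021 in Essential 6 medium, then SB431542 and CHIR 99021, and then the same pair with retinoic acid. The D15 library held free-floating enteric crestospheres at day 15, which had been kept in neurobasal medium with FGF2, CHIR 99021, N2 and B27 in ultra-low-attachment plates. The tissue label of both samples reads crestosphere, and the D10 library was taken as adherent culture from its source name and plating label. Each stage had 1 library, which pooled 2 biological repeats of 1 cell line. The metadata do not assign cells to the repeats, so no test between stages was possible, and stage, culture format, medium, depth and library cannot be told apart.

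IGF2 is a fetal growth hormone that signals through the IGF1 receptor and the insulin receptor, both tyrosine kinases at the cell surface. IGF2R, also known as the cation-independent mannose 6-phosphate receptor, takes IGF2 up for degradation and does not signal as a kinase. The IGF binding proteins (IGFBPs) are secreted, hold IGFs outside the cell and set how much of them reaches the receptors, and proteases such as PAPP-A release the IGFs again. The Essential 6 medium and the N2 and B27 supplements all contain insulin.

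The D10 table held 9627 cells and 70488169 unique molecular identifiers (UMIs), with a median of 6713 UMIs per cell. The D15 table held 6320 cells and 84976253 UMIs, with a median of 11770.5 per cell. The authors had annotated 4921 and 4934 of these cells as ENCCs. They had marked 2332 and 984 cells for removal. The other classes carried the names NEP (neuroepithelial), CP (cranial placode), NNE (non-neural ectoderm) and Mes (mesenchymal). The ENCCs were divided into the subclusters ENCC 1 to ENCC 4 at D10 and ENCC 1′ to ENCC 4′ at D15, and a few ENCCs stood outside them. Against fixed markers, ENCCs had the highest level of 4 of 11 ENCC markers at D10 and of 6 of 11 at D15. The summed level of these markers was 805 CPM in D10 ENCCs, against 745 in CP, 607 in NNE and 184 in NEP cells, and 559 CPM in D15 ENCCs, against 107 to 403 in the other classes. NEP cells led for 3 of 6 NEP markers at D10 and 2 of 6 at D15, and CP2 cells for 1 of 7 CP markers. The CP cells of D10 and CP1 cells of D15 led for 6 of 7, NNE cells for 6 of 6 NNE markers and Mes cells for 7 of 8 Mes markers. All class names are therefore used only as deposited. The 256 D10 ENCCs outside the subclusters had a summed level of 1144 CPM for the 6 NEP markers, against 129.0 in all D10 ENCCs and 1434 in D10 NEP cells. Both libraries held 102 of the same cell barcodes.

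Levels are given as CPM, the UMIs of a gene in all cells of a class together, per 1000000 UMIs of any gene in those cells. Intervals are 95% exact Poisson intervals for CPM and exact Clopper-Pearson intervals for shares of cells, and both cover counting error only. A ratio between classes is a log2 of CPM + 1, and a gene is said to be past the fold when it had at least 5 CPM in 1 of the classes compared and differed by at least 1 log2 unit. The CPM of a 3′ UMI count is not scaled to transcript length, and levels are therefore compared between cells and not between genes.

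**Figure D1:**
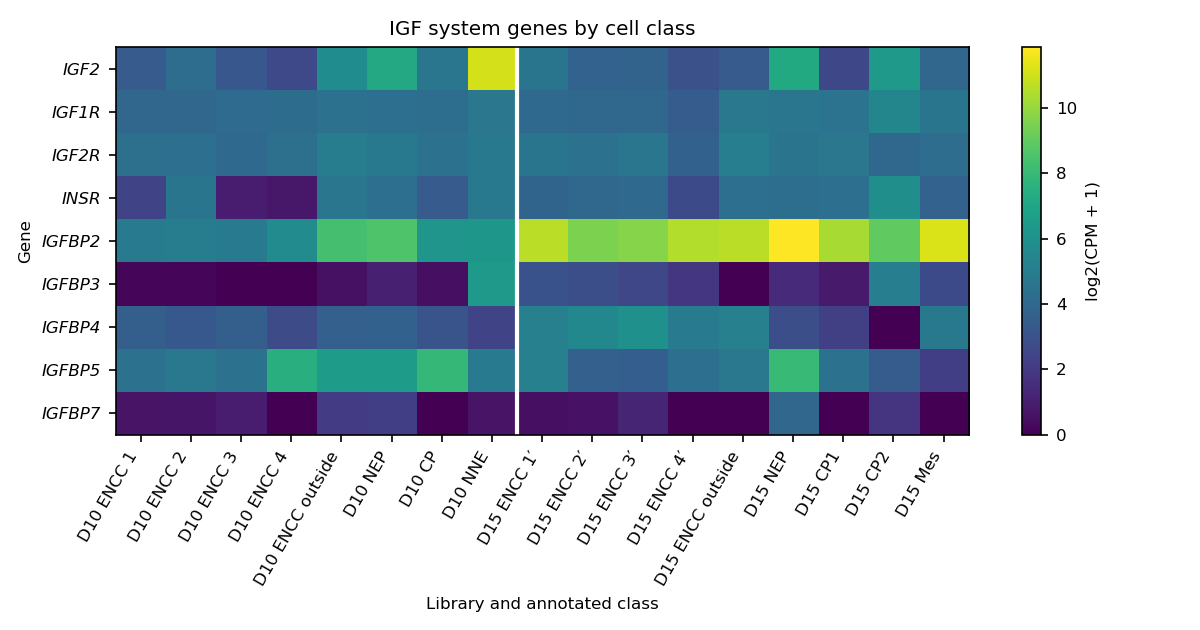
Heat map of log2(CPM + 1) for the 9 genes (rows) in the 8 classes of D10 and the 9 classes of D15 (columns, separated by a white line). IGFBP2 is bright in each D15 class, IGF2 peaks at 2163 CPM in D10 NNE cells, while IGF1R runs from 9.89 to 42.3 CPM and IGF2R from 11.9 to 32.2 CPM.

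In ENCCs, 3 of the 9 genes were past the fold upward at D15, namely IGFBP2, IGFBP3 and IGFBP4, and 0 were past it downward. Of all 9257 genes that reached 5 CPM in ENCCs, 8.26% were past the fold upward and 6.02% downward. IGFBP2 was selected on this contrast, and IGFBP3 reached 5 CPM only at D15, the stage where it was higher. Of the 6 other members that reached 5 CPM at both stages, 1 was past the fold, IGFBP4, and nothing is read from the count of 3. IGFBP7 did not reach 5 CPM and was the member that dropped out, leaving 8. The median log2 ratio was 0.21 over the 9 members and 0.39 over the 8, while that of all genes tested was -0.14. Scaling by trimmed mean of M-values (TMM) moved the median of all genes to 0.05. Of the genes past the fold, 57.9% were higher at D15 with scaling by totals and 71.2% with TMM. The 3 genes past the fold all encode binding proteins. Other binding protein genes were lower at D15, IGFBP5 with a log2 ratio of -0.67 and IGFBP6, which is not a member, with -2.62. The count of members past the fold upward was 3 with TMM scaling and 2 with a filter of 20 CPM, which IGFBP3 does not reach. The ligand and the 3 receptors stayed within the fold in ENCCs.

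**Figure D2:**
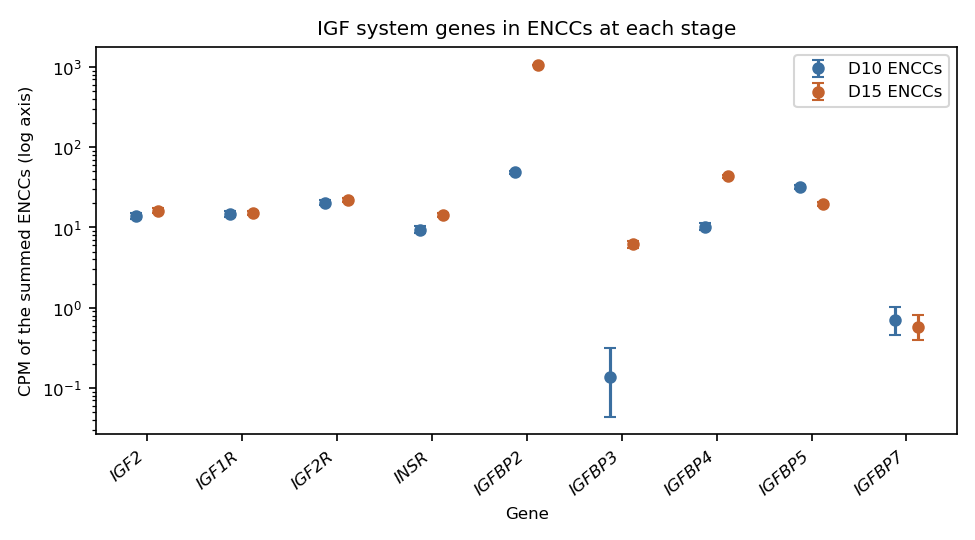
CPM (log axis) of the 9 genes in the summed ENCCs of D10 (blue) and D15 (orange), with 95% exact Poisson intervals as bars. IGFBP2 went from 48.6 to 1061 CPM, IGFBP3 and IGFBP4 were also higher at D15, and the points of IGF1R and IGF2R lie next to each other.

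The binding protein genes past the fold lie on different chromosomes. In GENCODE v29 (GRCh38), IGFBP2 lies at chr2:216632828-216664436 on the plus strand, IGFBP3 at chr7:45912245-45921874 on the minus strand and IGFBP4 at chr17:40443461-40457731 on the plus strand. No other gene of that annotation overlaps them. IGFBP5, at chr2:216672105-216695525 on the minus strand, is the neighbour of IGFBP2, with 7668 bases between the 3′ ends of the 2 genes. An antisense gene, AC007563.2, overlaps the first part of IGFBP5, and whether the counting used strand is not given in the sources used here. The 250 bases before the RefSeq start site (GRCh38.p14) are shown for the 3 genes that were higher together and for IGFBP5, the neighbour that was not. The sequences are written 5′ to 3′ on the strand of the gene, with capitals for the GC box, GGGCGG, on either strand. A TATA box, TATAAA, is in capitals as well. IGFBP2 has 3 RefSeq start sites, of which the one with the most CpG dinucleotides is shown.
IGFBP2, chr2:216633170-216633419, plus strand: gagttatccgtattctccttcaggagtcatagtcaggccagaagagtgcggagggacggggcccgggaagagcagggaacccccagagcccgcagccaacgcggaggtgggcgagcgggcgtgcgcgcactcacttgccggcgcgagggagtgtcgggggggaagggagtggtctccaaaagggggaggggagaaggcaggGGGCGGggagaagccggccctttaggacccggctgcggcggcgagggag
IGFBP3, chr7:45921273-45921522, minus strand: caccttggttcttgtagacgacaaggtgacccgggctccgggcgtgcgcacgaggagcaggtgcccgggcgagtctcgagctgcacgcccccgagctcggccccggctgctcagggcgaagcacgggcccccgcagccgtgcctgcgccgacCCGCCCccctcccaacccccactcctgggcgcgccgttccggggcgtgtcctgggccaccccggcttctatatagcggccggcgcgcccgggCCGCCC
IGFBP4, chr17:40443200-40443449, plus strand: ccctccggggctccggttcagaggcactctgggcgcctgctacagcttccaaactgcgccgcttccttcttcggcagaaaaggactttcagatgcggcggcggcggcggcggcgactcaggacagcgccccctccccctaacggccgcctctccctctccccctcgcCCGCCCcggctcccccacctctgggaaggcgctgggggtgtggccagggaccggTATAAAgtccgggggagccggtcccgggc
IGFBP5, chr2:216695550-216695799, minus strand: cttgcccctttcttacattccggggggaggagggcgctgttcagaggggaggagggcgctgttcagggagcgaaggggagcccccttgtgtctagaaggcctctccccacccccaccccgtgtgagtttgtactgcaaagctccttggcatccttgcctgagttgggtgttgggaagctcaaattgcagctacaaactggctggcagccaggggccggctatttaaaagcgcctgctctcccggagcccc

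The IGFBP2 window held 1 GC box, the IGFBP3 window 2 and the IGFBP4 window 1, while the IGFBP5 window held 0. Of 35116 windows of the same length in the table, 42.6% held at least 1. The IGFBP4 window alone of the 4 held TATAAA, which starts 29 bases before the start site and occurs in 10.7% of all windows. Searches on both strands for CACGTG (an E box), AGGTCA (a nuclear receptor motif) and TTTGAT (a TCF/LEF core) found 0 matches in the 4 windows, and these letters occur in 6.34%, 12.1% and 8.45% of all windows. The other 2 windows of IGFBP2 differ in these letters. That at chr2:216632578-216632827 holds 1 GC box and 1 AGGTCA, and that at chr2:216659317-216659566 holds 0 matches to any of the motifs searched. The 4 windows printed had 22, 32, 24 and 8 CpG dinucleotides in the order printed. The printed IGFBP2 window was chosen for its CpG count, so nothing is read from that count. In the other 2 IGFBP2 windows there were 7 and 4, in the order named above. These matches describe the letters of the windows only.

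IGFBP2 encodes a binding protein with an integrin-binding motif that is abundant in fetal tissues. Its level was 48.6 CPM (46.4 to 50.9) in D10 ENCCs and 1061 CPM (1052 to 1069) in D15 ENCCs, a log2 ratio of 4.42, which placed it 4th of the 9257 genes tested. This is the contrast on which IGFBP2 was selected. Among the D10 ENCC subclusters it was 28.4 CPM in ENCC 1, 32.1 in ENCC 2, 29.4 in ENCC 3 and 51.4 (40.1 to 64.8) in ENCC 4. The first 3 have overlapping intervals and ENCC 4 lies above them. The D10 ENCCs outside the subclusters held 332 CPM (308 to 356), close to the 385 CPM (374 to 395) of D10 NEP cells, and contributed 746 of the 1795 IGFBP2 UMIs of D10 ENCCs. With the numbered subclusters alone the D10 level was 30.2 CPM and the log2 ratio 5.08. The remaining D10 classes were CP with 71.4 CPM (61.3 to 82.7) and NNE with 77.5 CPM (65.3 to 91.2), whose intervals overlap.

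Within D15 the IGFBP2 level was 1588 CPM (1570 to 1606) in ENCC 1′, 730 (720 to 741) in ENCC 2′, 832 (812 to 852) in ENCC 3′ and 1434 (1374 to 1496) in ENCC 4′. None of these 4 intervals overlaps another. The level was 1271 CPM (1226 to 1317) in CP1 cells, 500.0 (433 to 574) in CP2 cells, 2306 (2182 to 2435) in Mes cells and 3726 (3615 to 3839) in NEP cells. The lowest D15 class, CP2, was thus above the highest D10 class, NEP. ENCCs of D15 outside the subclusters, which were only 27 cells, had 1578 CPM (1442 to 1724). The NEP cells of each library had the highest IGFBP2 level of that library, at log2 ratios over the ENCCs of 2.96 at D10 and 1.81 at D15.

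The per-cell counts of IGFBP2 describe the same UMIs of the same libraries and add no independent evidence on the stages. After each cell had been thinned to 3000 UMIs, an IGFBP2 UMI was present in 10.9% (10.0 to 11.8) of 4919 D10 ENCCs and in 86.2% (85.2 to 87.2) of 4934 D15 ENCCs. Without thinning the shares were 22.6% and 99.3%, at median depths of 7004 and 11082 UMIs. The median thinned count was 0 at D10 and 2 at D15, with at least 5% of the D15 ENCCs at 10 UMIs or more and the highest cell at 31. The variance over the mean of the thinned counts was 1.53 at D10 and 3.04 at D15, where a Poisson count would have 1. In NEP cells 62.0% of 1798 cells had an IGFBP2 UMI at D10 and 104 of 104 at D15. No class was known to lack the gene. The lowest share at D15 was 79.1% (64.0 to 90.0) of 43 CP2 cells, and the part of free RNA in these shares was not tested. The levels of the D15 classes, from 500.0 to 3726 CPM, were not alike.

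**Figure D3:**
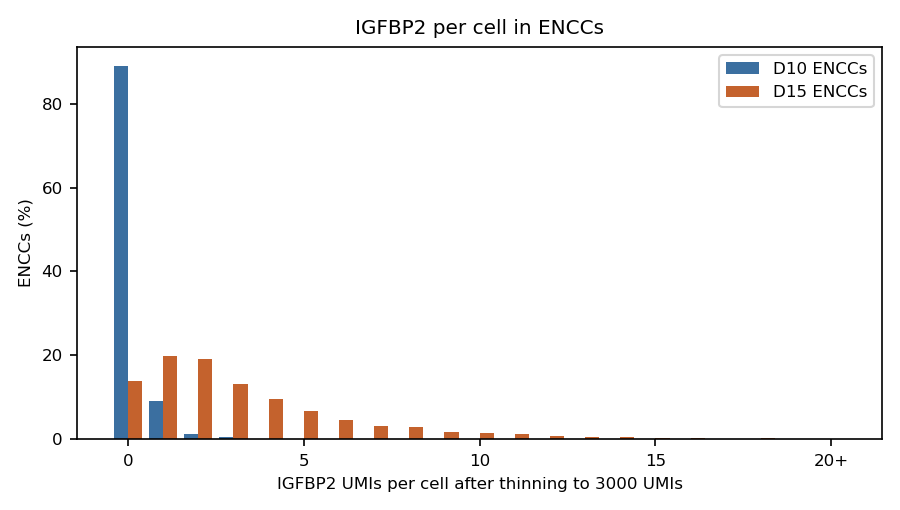
Percent of ENCCs (y axis) at each number of IGFBP2 UMIs after thinning to 3000 UMIs per cell (x axis), D10 in blue and D15 in orange. At D10 89.1% of the cells sit at 0, against 13.8% at D15, and the D15 counts extend beyond 20.

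The IGFBP2 level was also read by depth. When D15 ENCCs were cut by depth into 3 equal groups, the level from the shallowest to the deepest was 1197, 1084 and 966 CPM. The same groups of D10 had 38.8, 37.6 and 61.3 CPM, with only the deepest above the others. Cells outside the subclusters were also deeper at D10, with a median of 8376.5 UMIs.

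IGFBP3, the main carrier of IGFs in serum, was almost undetected in D10 ENCCs, with 5 UMIs or 0.135 CPM (0.0439 to 0.316). In D15 ENCCs it reached 6.18 CPM (5.54 to 6.86), a log2 ratio of 2.66 on the scale with 1 CPM added, 80th of the genes tested. The interval of the ratio without the added CPM was 4.28 to 7.14 log2 units. Only 1.48% of D15 ENCCs had an IGFBP3 UMI at 3000 UMIs per cell. The D15 subclusters ranged from 2.64 CPM in ENCC 4′ to 7.06 CPM in ENCC 1′, with overlapping intervals. The class with the highest level was NNE at D10, with 84.5 CPM (71.8 to 98.8) and a UMI in 19.1% of 235 thinned cells. D10 NEP and CP cells had 1.07 and 0.399 CPM. Over whole libraries, where NNE cells enter the D10 sum, IGFBP3 was 4.11 CPM at D10 and 5.52 at D15 and within the fold.

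IGFBP4, which binds IGFs until it is cut by PAPP-A, was 10.2 CPM (9.22 to 11.3) in D10 ENCCs and 43.3 CPM (41.6 to 45.1) in D15 ENCCs, a log2 ratio of 1.98 and rank 203. Among D10 classes it ran from 4.33 CPM in NNE cells to 11.7 CPM in NEP cells. At D15 the ENCC subclusters were among the highest classes. ENCC 3′ had 60.3 CPM (55.1 to 65.8), ENCC 2′ 45.1 (42.6 to 47.7), ENCC 1′ 34.7 (32.1 to 37.4) and ENCC 4′ 29.7 (21.7 to 39.7). The last 2 overlap. By contrast, D15 NEP cells had 6.10 CPM (2.45 to 12.6), CP1 cells 3.77 CPM (1.72 to 7.15) and CP2 cells 0 UMIs of 401995, for which the exact interval reaches 9.18 CPM. Mes cells had 26.7 CPM from 15 UMIs, which could not be told from ENCC 4′ at this depth. The D15 subclusters with the higher IGFBP4 levels, ENCC 3′ and ENCC 2′, were those with the lower IGFBP2 levels. These are 4 subclusters of 1 library, and the relation was not tested.

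IGFBP5 is a binding protein that also attaches to the extracellular matrix. It was 31.8 CPM (30.0 to 33.7) in D10 ENCCs and 19.6 CPM (18.4 to 20.8) in D15 ENCCs, a log2 ratio of -0.67, within the fold. The average hid 1 subcluster. ENCC 4 of D10 had 179 CPM (157 to 203), against 20.6 in ENCC 1, 25.7 in ENCC 2 and 20.9 in ENCC 3, whose intervals overlap. After thinning, 34.2% of 187 ENCC 4 cells had an IGFBP5 UMI, against 5.37% of 3001 ENCC 1 cells. D10 CP cells were higher still at 235 CPM (216 to 254), NEP cells had 94.0 and NNE cells 29.8. The 7 CP markers had a summed level of 153 CPM in ENCC 4 and 760 CPM in D10 CP cells. They summed to 15.1, 17.3 and 23.6 CPM in ENCC 1, ENCC 2 and ENCC 3. These markers summed to 16.6 CPM in D10 NEP, 22.7 in D10 NNE, 18.3 in D15 NEP and 1240 in D15 CP1 cells. The part of the CP markers in the IGFBP5 level of ENCC 4 was not tested. In D15 the highest class was NEP with 254 CPM (225 to 285), and the subclusters ran from 10.7 CPM in ENCC 3′ to 34.9 CPM (32.3 to 37.7) in ENCC 1′. CP1 cells at D15 had 20.5 CPM (15.2 to 27.1).

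IGFBP7, a low-affinity relative of the binding proteins, was at 0.704 CPM in D10 ENCCs and 0.573 CPM in D15 ENCCs, with 26 and 32 UMIs. The highest class was D15 NEP with 13.9 CPM (7.97 to 22.7) from 16 UMIs. All other classes were below 4 CPM. IGFBP7-AS1, which overlaps it on the opposite strand, had 0 UMIs in both libraries.

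IGF2 was the only ligand of the system with more than a few UMIs, and much of it came from few cells. Its level in D10 NNE cells was 2163 CPM (2096 to 2231), a log2 ratio of 7.19 over the ENCCs of the same library, and 97.0% of 235 thinned NNE cells had an IGF2 UMI. NNE cells were 2.48% of the D10 cells and carried 38.4% (37.5 to 39.4) of the IGF2 UMIs. D10 NEP cells had 144 CPM (138 to 150), ENCCs outside the subclusters 53.3, CP cells 23.9, ENCC 2 18.0 (15.2 to 21.2), ENCC 1 9.49 (8.28 to 10.8), ENCC 3 8.46 and ENCC 4 5.07. The last 3 overlap. ENCCs, 51.1% of the cells, carried 4.91% of the IGF2 UMIs. In NEP cells IGF2 was uneven, since 87.5% of 1798 thinned cells had none while the highest had 18, with a variance over mean of 5.93. The 97 D10 cells with the most IGF2, which are 1% of the library, held 38.8% of its UMIs and were 49 NNE, 12 NEP and 36 removed cells. Of the kept cells among them 0 were ENCCs, and the removed cells have no class here.

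At D15, where no NNE class was annotated, IGF2 was highest in NEP cells, at 147 CPM (126 to 171), followed by CP2 cells at 82.1 (56.5 to 115). The D15 NEP cells had a summed level of 941 CPM for the 6 NNE markers and 336 CPM for the 6 NEP markers, and CP2 cells had 204 and 726 CPM. In D10 the NNE markers summed to 5478 CPM in NNE and 1387 CPM in NEP cells. The part of NNE marker levels in the IGF2 level of NEP cells was not tested. ENCC 1′ had 23.7 CPM (21.6 to 26.0), above ENCC 2′ with 12.4 (11.2 to 13.9) and ENCC 3′ with 12.7 (10.4 to 15.4). ENCC 4′ had 6.60 CPM and CP1 cells 5.02. ENCCs, 78.1% of the D15 cells, carried 56.4% of the D15 IGF2 UMIs, and NEP cells, 1.65% of the cells, 10.6%. The 64 D15 cells with the most IGF2 held 32.9% of its UMIs. They were 18 ENCC 1′, 5 ENCC 2′, 2 ENCC 3′, 12 NEP, 4 CP2, 1 Mes and 22 removed cells. In all ENCCs IGF2 was 13.8 CPM (12.6 to 15.1) at D10 and 16.2 CPM (15.1 to 17.2) at D15, whereas in whole libraries it was 147 CPM at D10 and 18.8 CPM at D15. The log2 ratio was therefore 0.21 in ENCCs and -2.90 in whole libraries. In the annotation, IGF2 at chr11:2129112-2149603 on the minus strand is overlapped by a second entry of the same name, by INS-IGF2 and by IGF2-AS. The counts listed INS-IGF2 at 0 UMIs in both libraries and IGF2-AS at 90 and 9 UMIs. The part of free RNA in the low IGF2 level of ENCCs was not tested. ENCC 4 had 0 thinned cells of 187 with an IGF2 UMI, where the exact interval reaches 1.95%.

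Over whole libraries, 2 members were past the fold upward, IGFBP2 with a log2 ratio of 2.77 and IGFBP4 with 1.66. The 2 members past it downward were IGF2 with -2.90 and IGFBP5 with -1.33. Of all 9904 genes that passed the filter there, 8.64% were past the fold upward and 8.71% downward. Over all D10 cells, NEP and removed cells included, IGFBP2 was at 164 CPM.

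**Figure D4:**
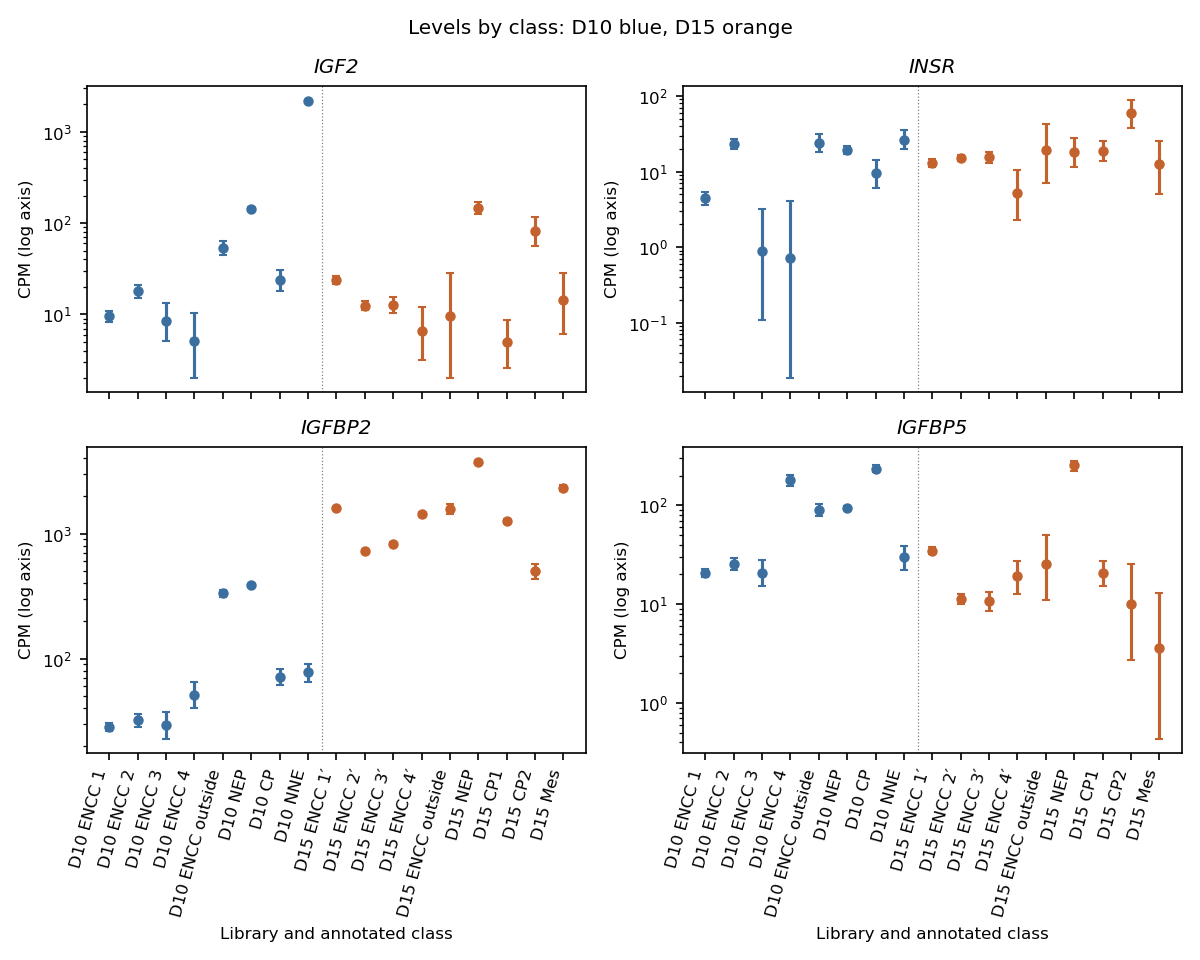
CPM (log axes) of IGF2, INSR, IGFBP2 and IGFBP5 in each class of D10 (blue) and D15 (orange) with 95% exact Poisson intervals. IGF2 peaks in D10 NNE cells, INSR is below 1 CPM in ENCC 3 and ENCC 4 and 23.2 CPM in ENCC 2, and IGFBP5 peaks in ENCC 4, D10 CP and D15 NEP cells.

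Between the stages IGF1R and IGF2R differed little in ENCCs, and INSR differed more. IGF1R, the main signalling receptor, was 14.8 CPM (13.5 to 16.0) in D10 ENCCs and 15.2 CPM (14.2 to 16.2) in D15 ENCCs, a log2 ratio of 0.04. Across the 17 classes it lay between 9.89 CPM in ENCC 4′ and 42.3 CPM (24.6 to 67.7) in CP2, and in all other classes it was at most 25.8 CPM. The CP2 level was past the fold over D15 ENCCs, with a log2 ratio of 1.42. Each neighbour in the order of its levels overlapped the next in both libraries, but classes further apart did not all overlap. D10 NEP cells, with 18.9 CPM (16.7 to 21.3), were above ENCC 1, with 14.1 CPM (12.6 to 15.7). IGF2R, the scavenger, was 20.2 CPM (18.8 to 21.7) and 21.9 CPM (20.7 to 23.1) in ENCCs, a log2 ratio of 0.11, and between 11.9 CPM in ENCC 4′ and 32.2 CPM in the D15 ENCCs outside the subclusters. The interval of ENCC 4′ (7.04 to 18.8) lay below that of ENCC 2′ (19.1 to 22.6), and that of D10 NEP cells (24.5 to 30.1) above that of ENCC 1 (18.1 to 21.8). An antisense gene, AIRN, overlaps IGF2R.

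INSR, the insulin receptor, was 9.39 CPM (8.43 to 10.4) in D10 ENCCs and 14.3 CPM (13.3 to 15.3) in D15 ENCCs, a log2 ratio of 0.56. At D10 it was 23.2 CPM (20.0 to 26.7) in ENCC 2 but 4.44 CPM (3.62 to 5.39) in ENCC 1, and ENCC 3 and ENCC 4 had 2 UMIs and 1 UMI, or 0.890 CPM (0.108 to 3.22) and 0.724 CPM (0.0183 to 4.03). After thinning, 7.53% of 1129 ENCC 2 cells had an INSR UMI, against 1.23% of 3001 ENCC 1 cells. The levels of D10 NNE cells (26.5 CPM), NEP cells (19.4 CPM) and ENCCs outside the subclusters (24.0 CPM) were near that of ENCC 2. At D15 INSR was 13.2, 15.2 and 15.5 CPM in ENCC 1′, ENCC 2′ and ENCC 3′, whose intervals overlap, and 5.28 CPM (2.28 to 10.4) in ENCC 4′, below them. The log2 ratio of ENCC 3′ over ENCC 4′ was 1.39, past the fold, and that of ENCC 2 over ENCC 4 at D10 was 3.81. Without ENCC 2 the D10 level was 5.51 CPM and the log2 ratio of D15 over D10 was 1.23, past the fold, a setting added after seeing the data. INSR ranked 12th of 8770 genes for its level in ENCC 2 over ENCC 1, with a log2 ratio of 2.15. In that comparison 105 genes were past the fold upward and 0 downward, led by PHKG1, PTPRS, CTNNB1, C1orf56 and XYLT2, which were named after their values were seen. Since the subclusters were made from these counts, this is a description.

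Between the 4 D10 subclusters, 3 of the 7 members that passed the filter had a highest level past the fold over the lowest, namely IGF2, INSR and IGFBP5, where 16.1% of all genes did. At D15 5 of 8 did, namely IGF2, INSR, IGFBP2, IGFBP3 and IGFBP5, where 28.2% of all genes did. ENCC 4 and ENCC 4′ had the lowest IGF2 level of the subclusters of their library, from 7 and 10 UMIs. The interval of ENCC 4 overlaps those of ENCC 1 and ENCC 3, and that of ENCC 4′ overlaps those of ENCC 2′ and ENCC 3′. IGF1R and IGF2R were within the fold between the subclusters of both libraries.

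The other classes were set against the ENCCs of their own library. In D10 NEP cells 3 of 7 members that passed the filter were past the fold, all upward (IGF2, IGFBP2 and IGFBP5), where 16.8% of all genes were past it in either direction. In D10 CP cells 1 of 7 was, IGFBP5, with 8.73% of all genes. D10 NNE cells had 4 of 8, namely IGF2, INSR and IGFBP3 upward and IGFBP4 downward, with 20.5% of all genes. At D15 the NEP cells had 6 of 9, with IGF2, IGFBP2, IGFBP5 and IGFBP7 upward and IGFBP3 and IGFBP4 downward, where 29.0% of all genes were past the fold. CP1 cells had 3 of 8, all downward (IGF2, IGFBP3 and IGFBP4), with 23.8%. CP2 cells had 6 of 8, with IGF2, IGF1R, INSR and IGFBP3 upward and IGFBP2 and IGFBP4 downward, but with only 43 cells 48.6% of all genes were past the fold. Mes cells had IGFBP2 upward and IGFBP5 downward, 2 of 8, with 16.2%. IGFBP4 was below the level of the ENCCs in each of the 4 other D15 classes and past the fold in NEP, CP1 and CP2. In Mes cells its log2 ratio was -0.68, and the interval (-1.53 to 0.03) holds 0.

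Cell cycle phase, which the authors had called with Seurat from its S and G2M gene sets, was read against the members in ENCCs. INSR was highest in S phase in both libraries. In D10 ENCCs it was 7.36 CPM (5.95 to 9.01) in G1, 15.2 CPM (13.1 to 17.6) in S and 5.81 CPM (4.54 to 7.33) in G2M. In D15 ENCCs it was 10.8 CPM (9.34 to 12.5) in G1, 21.2 CPM (19.4 to 23.2) in S and 7.07 CPM (5.77 to 8.59) in G2M. The S phase intervals overlap neither of the others. The log2 ratio of S over G1 was 0.95 at D10, rank 287 of 8988 genes, and 0.91 at D15, rank 346 of 8765. S phase was also highest within ENCC 2, with 14.3, 38.4 and 14.9 CPM in G1, S and G2M, and within ENCC 1 with 3.97, 6.91 and 2.25 CPM. The same was found within ENCC 1′ (8.16, 20.6 and 5.98 CPM), ENCC 2′ (12.8, 21.5 and 7.31 CPM) and ENCC 3′ (13.3, 21.3 and 9.79 CPM). The intervals of G1 and S overlap in ENCC 1 and ENCC 3′. ENCC 3, ENCC 4 and ENCC 4′ had too few INSR UMIs to be read by phase.

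IGFBP5 had the opposite leaning, with its highest level in G1. In D10 ENCCs it was 61.0 CPM (56.8 to 65.5) in G1, 21.1 CPM (18.6 to 23.9) in S and 11.7 CPM (9.87 to 13.8) in G2M. In D15 ENCCs the 3 levels were 27.5 CPM (25.1 to 30.1), 18.3 CPM (16.6 to 20.1) and 11.9 CPM (10.2 to 13.8). The order was the same within ENCC 1 (41.7, 14.7 and 6.49 CPM), ENCC 2 (54.3, 19.9 and 9.79 CPM) and ENCC 4 (269, 99.6 and 59.4 CPM). It was the same again within ENCC 1′ (52.0, 31.0 and 21.9 CPM), ENCC 2′ (16.0, 11.4 and 7.05 CPM) and ENCC 3′ (15.3, 10.1 and 1.84 CPM), although the intervals of G1 and S overlap in the last 2. The phases of ENCC 3 had overlapping intervals, and ENCC 4′, with 5 cells in S phase and 14 in G2M, could not be read. In G1 cells alone the log2 ratio of D15 over D10 was -1.12, past the fold, where it was -0.67 over all ENCCs.

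IGFBP2 was also highest in G1 at D15, with 1369 CPM (1351 to 1386) against 894 CPM in S and 962 CPM in G2M. The G1 cells were above the other phases in ENCC 1′ (2147, 1333 and 1385 CPM), ENCC 2′ (887, 646 and 724 CPM) and ENCC 3′ (1016, 644 and 767 CPM). In ENCC 4′, where 119 of 138 cells were in G1, they were not, with 1428 CPM in G1 and 1851 CPM in the 5 S phase cells. At D10 the G1 level of 67.2 CPM, against 38.9 and 38.6 CPM, was not found within ENCC 1, where the phases had 30.0, 27.9 and 27.4 CPM with overlapping intervals, and ENCC 4 had its lowest level in G1, at 33.5 CPM. IGF2 was also highest in G1, with intervals of 14.8 to 19.4, 10.5 to 14.5 and 10.0 to 14.0 CPM in G1, S and G2M at D10 and levels of 17.8, 14.5 and 16.8 CPM at D15. Its log2 ratio of S over G1 was -0.43 (-0.77 to -0.15) at D10 and -0.28 (-0.52 to -0.07) at D15. IGFBP3 at D15 was 5.93 CPM (4.84 to 7.18) in G1, 8.12 (7.02 to 9.35) in S and 3.26 (2.39 to 4.33) in G2M. The log2 ratios of S over G1 of IGF1R, IGF2R and IGFBP4 were 0.07, 0.02 and -0.12 at D10 and 0.19, 0.08 and 0.01 at D15, each with an interval that holds 0. In G2M, IGF1R at D15 was 17.8 CPM (15.7 to 20.1), above the 13.1 CPM (11.5 to 14.9) of G1, while at D10 the levels of 16.1 and 13.7 CPM had overlapping intervals. IGFBP3 at D10 and IGFBP7 had too few UMIs to be read by phase. Phases of cells of 1 library are not replicates, but the INSR and IGFBP5 orders were seen in each of the 2 libraries.

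**Figure D5:**
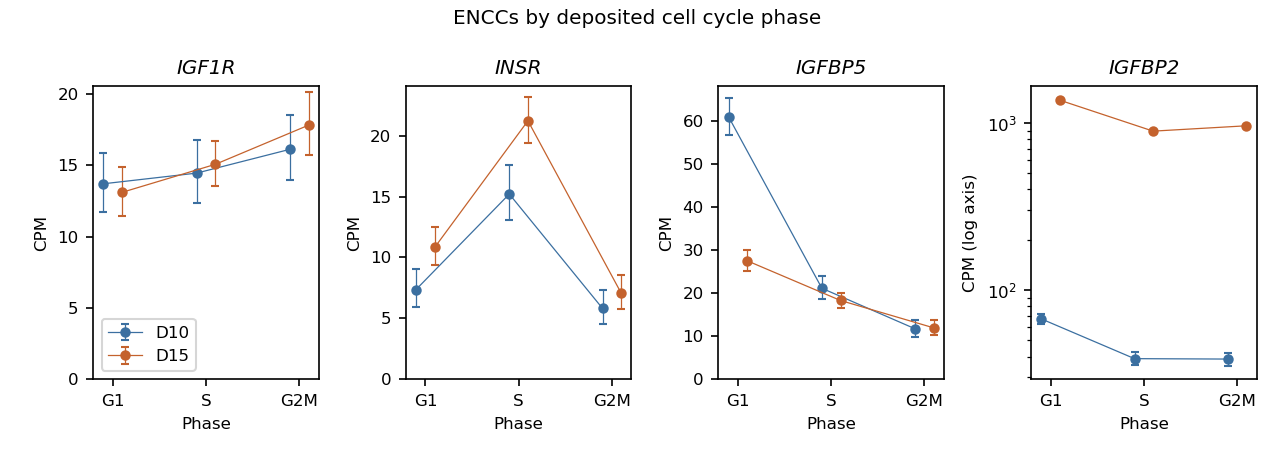
CPM of IGF1R, INSR, IGFBP5 and IGFBP2 (log axis for IGFBP2) in ENCCs by deposited cell cycle phase, D10 in blue and D15 in orange, with 95% exact Poisson intervals; lines only join the phases of a library. INSR peaks in S phase at 15.2 and 21.2 CPM and IGFBP5 declines from G1 to G2M in both libraries, while IGF1R stays between 13.1 and 17.8 CPM.

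Other genes of the pathway were taken from a list of 48, of which 47 had a row (H19 was not analysed here). In ENCCs 29 of them passed the filter, 5 were past the fold upward at D15 and 2 downward, and their median log2 ratio was -0.07 against -0.14 for all genes tested. Among all genes tested 8.26% were past the fold upward and 6.02% downward. Of the 29 genes, 22 reached 5 CPM at both stages, and among these 4 were past the fold upward and 0 downward. The share of all genes under that stricter filter was not computed, and nothing is read from these counts. IGFBP6, PAPPA and GRB10 passed the filter only through the stage where they were higher. Of the other ligands, INS had 0 UMIs in both libraries and IGF1 had 2 and 8 UMIs. IGFBP1 and IGFALS, which serves the serum complex of IGFs, had 0 UMIs, and the receptor relative INSRR had 1 and 0. IGFBP6, a binding protein that prefers IGF2, was 10.8 CPM (9.74 to 11.9) in D10 ENCCs and 0.913 CPM (0.680 to 1.20) in D15 ENCCs, a log2 ratio of -2.62. Its highest level was 311 CPM in D10 NNE cells, the class that also had the highest IGF2 level.

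In ENCCs, 3 genes that bear on IGFBP4 cleavage were past the fold between the stages, PAPPA downward and STC1 and STC2 upward. Of all genes tested, 8.26% were past the fold upward and 6.02% downward. PAPPA, the protease that cuts IGFBP4, was 7.25 CPM (6.41 to 8.18) in D10 ENCCs and 1.31 CPM (1.02 to 1.64) in D15 ENCCs, a log2 ratio of -1.84. STC1 and STC2 encode stanniocalcins, which inhibit PAPP-A. STC1 was 6.66 CPM (5.85 to 7.54) at D10 and 27.8 CPM (26.4 to 29.2) at D15, and STC2 was 5.20 CPM (4.49 to 5.99) and 27.2 CPM (25.8 to 28.6), log2 ratios of 1.91 and 2.18. Of the 5 genes listed in this role, 3 passed the filter in ENCCs, and PAPPA2 and HTRA1 did not. PAPPA passed it only through D10, the stage where it was higher. Cleavage of IGFBP4 was not tested, and nothing is read from the count of 3. Over whole libraries PAPPA was 4.74 CPM at D10 and 4.33 CPM at D15 and did not reach the filter. STC1 and STC2 were past the fold upward there too, with log2 ratios of 1.26 and 1.32. The classes with the highest PAPPA levels were CP2 and CP1 of D15, with 69.7 and 22.6 CPM. Within D15, STC1 had 50.8 CPM in ENCC 1′ and 39.6 in ENCC 4′ but 12.9 in ENCC 2′ and 18.2 in ENCC 3′, and STC2 had 49.3, 56.1, 13.2 and 15.7 CPM in the same subclusters. ENCC 1′ and ENCC 4′ were also the subclusters with the higher IGFBP2 levels.

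Of 6 adaptors that passed the filter 1 was past the fold upward, where 8.26% of all genes were, GRB10, an imprinted inhibitor of insulin and IGF signalling, with 4.68 CPM at D10 and 12.9 CPM at D15. CDKN1C, an imprinted inhibitor of the cell cycle that lies near IGF2 on chromosome 11, was 7.31 CPM at D10 and 23.0 CPM at D15, a log2 ratio of 1.53, and at D15 ranged from 11.8 CPM in ENCC 2′ to 75.9 CPM in ENCC 4′. In the PI3K and AKT branch 1 of 13 genes that passed the filter was past the fold upward, near the share of all genes, FOXO3, a transcription factor that AKT keeps out of the nucleus, with 18.7 and 38.6 CPM and a log2 ratio of 1.01. MTOR, the kinase further down this branch, was 13.9 CPM at D10 and 7.18 CPM at D15, a log2 ratio of -0.86, within the fold. The 3 IGF2 mRNA-binding protein genes IGF2BP1, IGF2BP2 and IGF2BP3 were within the fold, with log2 ratios of -0.03, -0.41 and -0.17. HMGA2, a chromatin protein upstream of PLAG1 and IGF2, had 132 CPM at D10 and 100.0 CPM at D15.

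The genes with a class pattern most like IGFBP2 were found by Pearson's r of log2(CPM + 1) over the 17 classes among 4052 genes with at least 50 CPM in 1 class. They were ODC1 (r = 0.96), ECI1 (0.95), DUSP15, SON and RCN2 (0.93 each). The 17 classes share 2 libraries, and these values are descriptions. Within the 8 D10 classes alone r was 0.91 for ODC1, 0.77 for ECI1, 0.72 for DUSP15, 0.63 for SON and 0.80 for RCN2. Within the 9 D15 classes alone it was 0.86, 0.87, 0.75, 0.77 and 0.39 in the same order. Each of the 10 values was below that over both libraries, and 0 of these genes were among the top 5 of either library alone. With cell types in place of subclusters 4 of 5 were kept. For IGF2 the most alike were HOXA3 (0.94), PKP2 (0.92) and PAK6 (0.91), and for INSR CTTN (0.88), C12orf49 (0.86) and TOR1AIP2 (0.85). IGFBP4 was most like the ribosomal protein genes RPL21 (0.93), RPS14 (0.91) and RPL22 (0.91). The best matches of IGFBP5 and IGFBP3 were lower, with SULF1, C5orf15 and SCP2 (0.80, 0.74 and 0.73) for the former and MCUR1, FILIP1L and TMCC1 (0.76, 0.75 and 0.75) for the latter. For members other than IGFBP2, r within each library was not computed. Their matches over both libraries therefore cannot be told from differences between the libraries.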

How the data were processed

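Droplet 3′ single-cell RNA sequencing (Chromium v3.1 chemistry per the labels) had been performed on 1 library per stage. The authors extracted cell-by-gene matrices with kallisto and bustools according to the methods, while the submitters' notes name Cell Ranger, GRCh38 and Seurat 4.0.4. The annotation release is not given in the sources used here. The deposited matrices hold raw UMI counts, whole numbers without normalization, and each cell's total equalled the UMI count of the deposited metadata in 9627 and 6320 cells. Per cell, the deposited metadata list percent of mitochondrial and ribosomal UMIs, a complexity score, the cell cycle phase, the cell type and the ENCC subcluster. The authors marked cells for removal on gene number (below 1250 at D10 or 1500 at D15, or above 3500), UMIs and mitochondrial percent (above 5 at D10 or 10 at D15). Marked cells were left out of classes and kept in whole-library sums. Doublets were not called.

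For each class, the counts of its cells were added up and divided by the total UMIs of that class. Log2 ratios used a pseudocount of 1 CPM, a filter of 5 CPM and a fold of 1 log2 unit. Without replicates no test was computed. A count of 0 was given with its exact interval. Cells were thinned to 3000 UMIs by hypergeometric draws, leaving out shallower cells. On simulated counts for the ENCC comparison over 33694 genes, 50 of 50 genes changed by 1.5 log2 units were past the fold. The changed genes all had at least 20 CPM in D10 ENCCs, and the counts held Poisson error only. The simulation therefore does not cover IGF2, IGF1R, INSR, IGFBP3, IGFBP4 and IGFBP7, which were below that level. The members were named by the rule of the set, the likeness genes as the 5 (IGFBP2) or 3 highest correlations, and the pathway genes by a list. The members and lists were chosen with earlier results of these data known. Alternatives covered scaling, pseudocount, filter, fold, cells used and thinning. Python 3.11.15, numpy 2.4.6, scipy 1.17.1, pandas 2.3.3, matplotlib 3.10.9 and, for TMM factors alone, edgeR 4.0.16 under R 4.3.3 were used.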

Additional observations from a re-analysis of the deposited data

Results flagged for a closer look

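The cells that the authors had marked for removal entered no class, and their levels were compared with those of the kept cells of the same library. In D10 each of the 9 members was higher in removed cells, with a Poisson interval wholly above that of kept cells. The share of all genes that meet this rule was not computed, and nothing about the members is read from the count. The levels in removed and kept cells were 252 and 119 CPM for IGF2, 269 and 136 CPM for IGFBP2, 71.4 and 56.7 CPM for IGFBP5 and 22.6 and 12.5 CPM for INSR. For IGF1R they were 20.2 and 16.3 CPM, for IGF2R 27.9 and 22.2 CPM, for IGFBP3 7.46 and 3.20 CPM, for IGFBP4 13.2 and 10.3 CPM and for IGFBP7 3.04 and 1.39 CPM. The NEP markers summed to 901 CPM in removed D10 cells and 458 CPM in kept ones, and their part in these differences was not tested. By reason for removal, IGF2 was 106 CPM in the 1244 cells with too few genes, 358 CPM in the 318 with too many and 236 CPM in the 768 with a high mitochondrial percent. IGFBP2 was 103, 335 and 315 CPM in the same groups. At D15 the interval of removed cells was wholly above that of kept cells only for IGF1R, with 21.8 CPM (20.0 to 23.7) and 15.9 CPM (14.9 to 16.9). IGFBP7 at D15 was 1.38 CPM (0.956 to 1.93) in removed and 0.812 CPM (0.601 to 1.07) in kept cells, which overlap. IGFBP4 at D15 was lower in removed cells, at 26.9 CPM (24.9 to 29.0) against 40.6 CPM (39.0 to 42.2).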

How the results depend on the processing

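IGFBP2 was selected on its higher level in D15 ENCCs, and the settings reuse the same counts, so nothing is read from the sign. Its log2 ratio was positive under all 12 settings run, the reported one included, from 2.77 over all deposited cells to 5.08. It was 4.60 with TMM scaling, 4.54 as the mean of per-cell CPM, 5.08 with numbered subclusters alone, 4.33 in G1 cells, 4.55 without the deepest 6% of ENCCs, 2.77 over all deposited cells, 4.31 with a pseudocount of 5 CPM and, added after seeing the data, 4.29 without ENCC 2 at D10. Leaving out the barcodes found in both libraries gave 4.43, also chosen after seeing the data. The ratio of IGFBP3 ran from 0.35 over all deposited cells to 4.74 with a pseudocount of 0.1 CPM, and with 5 CPM it was 1.12. IGFBP4 stayed between 1.66 and 2.16. INSR passed the fold without ENCC 2 (1.23), and IGFBP5 in G1 cells (-1.12) and over all deposited cells (-1.33), as did IGF2 over all deposited cells (-2.90). The pathway genes past the fold upward numbered 3 at a fold of 1.5 log2 units, and those downward 0 with a filter of 20 CPM, which IGFBP6 and PAPPA do not reach. The share of D10 ENCCs with an IGFBP2 UMI was 15.5% at 5000 UMIs per cell, 22.6% without thinning and 1.69% for at least 2 UMIs, and that of D15 ENCCs 95.0%, 99.3% and 66.3%. Where no reason is given, the cause was not tested. The number of members past the fold upward was 3, and 2 with a filter of 20 CPM, which IGFBP3 does not reach. No replicate could be left out, since the metadata do not assign the cells of a library to its 2 pooled repeats. No paired analysis was possible because each group holds 1 library and no result comes from a test. Depth limits IGFBP3 and IGFBP7 in ENCCs and each gene in the classes of under 50 cells.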
